A study of Mus musculus with 70 samples.

Results

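This report follows 10 genes that are widely expressed in activated lymphocytes, the S100 genes S100a4, S100a6, S100a10 and S100a11, the annexins Anxa1 and Anxa2, the galectins Lgals1 and Lgals3, the filament gene Vim and the scaffold gene Ahnak, through Foxp3+ regulatory T cells (Tregs) of 6 mouse tissues. The genes were taken by name, with earlier results of these data known, and are 10 of the 53465 gene identifiers in the count table. Every library with over 1000000 counts was used. All 10 passed the filter on low counts that left 13173 protein-coding genes for testing.

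The cells came from 5 male Foxp3-YFP-cre mice of 16.6 to 18.6 weeks that carry the Foxp3tm4(YFP/icre)Ayr allele, in which the Foxp3 locus drives a yellow fluorescent protein fused to Cre recombinase, so that Tregs can be sorted by colour. No treatment was applied, and the same 5 mice gave all 14 groups. From blood, spleen, lungs, visceral adipose tissue (VAT), colon and skin, effector Tregs (eTregs, CD44hi) were sorted as ST2+ or ST2-, ST2 being the interleukin-33 receptor encoded by Il1rl1, and from spleen and lungs the ST2- CD44lo CD62L+ central Tregs (cTregs) were sorted as well. Each library was made from 55 to 220 sorted cells, so every value is an average over a small pool, in which fewer expressing cells and less RNA per cell cannot be told apart.

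S100 proteins are small calcium-binding proteins that act as dimers and change the activity of partner proteins. Annexins bind phospholipid membranes when calcium rises. The families meet in known complexes: S100A10 pairs with annexin A2 and recruits the very large scaffold protein AHNAK to the plasma membrane, while S100A11 is a partner of annexin A1, which is itself known as an anti-inflammatory ligand of formyl peptide receptors. Galectins bind β-galactoside sugars on glycoproteins, and galectin-1 is known in Tregs for its part in suppression. Vimentin forms the intermediate filament network of lymphocytes and other mesenchymal cells, and S100A4 and S100A6 are linked to cell motility and to cycling cells.

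Of 70 libraries, 67 were kept, with 1304560 to 2759926 counts each, and the other 3 were ST2+ libraries of blood (mouse 1) and colon (mice 2 and 5), which leaves n = 4 for blood ST2+, n = 3 for colon ST2+ and n = 5 elsewhere. Foxp3 was detected in every kept library (105 to 414 counts per 1000000, CPM), and Il1rl1 stood at 230 to 1614 CPM in ST2+ libraries against 0 to 195 CPM in ST2- CD44hi and 0 to 4.69 CPM in CD44lo libraries. Among ST2- CD44hi groups Il1rl1 was highest in skin, with a mean of 118 CPM (23.9 to 195 CPM). The means of the other tissues ran from 1.08 CPM in spleen to 24.8 CPM in colon. Transcripts of other cell types were present in some tissues. A list of 11 macrophage or monocyte genes summed to 1490 to 1670 CPM in colon ST2+ libraries, led by Lyz2 and C1qb, against 32.4 to 329 CPM in colon ST2-, and to 159 to 489 CPM in VAT ST2+ against 12.3 to 197 CPM in VAT ST2-. In blood that list summed to 52.2 to 181 CPM in ST2+ libraries and to 10.5 to 119 CPM in ST2-. In spleen ST2+ it summed to 2.27 to 18.0 CPM. In blood ST2+ libraries 7 of its 11 genes had no count, and the whole sum came from the others. Keratinocyte genes summed to 20.3 to 1270 CPM in skin ST2- and 65.7 to 1320 CPM in skin ST2+, and gut epithelial genes to 72.1 to 3600 CPM in colon ST2- and 268 to 2900 CPM in colon ST2+. Galectin-3 and annexins are also made by macrophages and epithelia. The part of these transcripts in the results below was not tested. Values without the 15 libraries that carry over 500 CPM of them are given for some of the members whose calls changed, not for all. Comparisons with colon ST2+ Tregs could not be refitted this way, and related genes outside the 10 were not read from that fit.

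The 4 S100 genes lie on chromosome 3 in neighbouring pairs (GRCm38). S100a4 (ENSMUSG00000001020, chr3:90603771-90606045, plus strand) ends 6836 bases before S100a6 (ENSMUSG00000001025, chr3:90612882-90624181, plus strand), and S100a11 (ENSMUSG00000027907, chr3:93520488-93526287, plus strand) ends 28792 bases before S100a10 (ENSMUSG00000041959, chr3:93555080-93564643, plus strand). Anxa1 (ENSMUSG00000024659, chr19:20373428-20390944, minus strand) and Ahnak (ENSMUSG00000069833, chr19:8989284-9076914, plus strand) share chromosome 19, and Anxa2 (ENSMUSG00000032231, chr9:69453620-69491795), Lgals1 (ENSMUSG00000068220, chr15:78926725-78930465), Lgals3 (ENSMUSG00000050335, chr14:47367751-47386160) and Vim (ENSMUSG00000026728, chr2:13573927-13582826) are on the plus strands of chromosomes of their own. Their merged exons span from 511 bases for S100a11 to 19938 bases for Ahnak. S100a4 shares 302 exon bases with Gm42674 on the same strand, which had 0 counts, and Anxa2 shares 98 exon bases with the antisense gene Gm16144, which had 33 counts over the 70 libraries, so that the counts of S100a4 are uncertain in how reads over the shared bases were assigned.

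The start regions show how differently the members are built, and 8 of the 10 could be matched to windows of 300 bases around the start that RefSeq gives (GRCm38.p6). That start differs from the Ensembl start for some: the 150 bases before it lie wholly within annotated exons for Anxa1 and Vim, and those of Lgals3 begin at position 47373710, inside the Ensembl gene. Short motifs were searched on both strands. A TATA box (TATAAA, in 13.6% of the 32851 windows) was found in Anxa1, Anxa2, S100a4 and Vim, and an AP-1 motif (TGANTCA, in 7.81% of windows), the site of the Jun and Fos factors that T cell receptor signals induce, in Anxa2 and S100a11. A GC box (GGGCGG, 35.7% of windows) was found in Ahnak, Anxa2, Lgals3 and S100a11, and a RUNX core (TGTGGT, 16.8% of windows) in S100a6. The TATA letters of Anxa1 and Vim therefore lie inside annotated exons. Those of Anxa2, its GC boxes and the GC box of Lgals3 are likewise absent from the bases outside annotated exons. These matches are a description of letters and not of bound sites. The bases outside annotated exons are shown for 4 members on the plus strand, 5′ to 3′, with the motif in capitals: S100a4 (TATA box, chr3:90603620-90603769) and S100a11 (AP-1 and GC boxes, chr3:93520346-93520487), which stand for the pairs on chromosome 3, and Anxa2 (AP-1, chr9:69453533-69453619) and Ahnak (GC boxes read on the other strand, chr19:8989134-8989283), which meet in a complex with S100A10.
S100a4: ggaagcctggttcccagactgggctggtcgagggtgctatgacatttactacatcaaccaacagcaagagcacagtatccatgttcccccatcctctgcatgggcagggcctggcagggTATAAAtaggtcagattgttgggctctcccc
S100a11: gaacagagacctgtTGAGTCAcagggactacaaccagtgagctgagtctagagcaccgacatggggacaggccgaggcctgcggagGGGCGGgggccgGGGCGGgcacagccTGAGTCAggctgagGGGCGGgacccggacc
Anxa2: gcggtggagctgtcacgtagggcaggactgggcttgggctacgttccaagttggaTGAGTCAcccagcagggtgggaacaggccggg
Ahnak: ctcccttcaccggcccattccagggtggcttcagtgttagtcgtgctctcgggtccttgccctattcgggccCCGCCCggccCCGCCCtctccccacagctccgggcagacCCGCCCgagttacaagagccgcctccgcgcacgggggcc

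The members made up 0.0732% to 0.718% of a library's counts. Their summed level was lowest in cTregs, at 717 to 880 CPM in spleen and 744 to 1020 CPM in lungs, and highest in VAT ST2+ libraries, at 4860 to 7040 CPM. Divided by exon length, the members at high level in spleen cTregs were S100a10 at 166 CPM per kb, Lgals1 at 98.9 CPM per kb and Vim at 71.4 CPM per kb, while S100a4, at 1.51 CPM per kb, Anxa1, at 0.0267 CPM per kb, and Lgals3, at 0.141 CPM per kb, were close to absent there. In VAT ST2+ Tregs the order on the same scale was Lgals1 at 454, S100a10 at 373, S100a6 at 287, Lgals3 at 247, Vim at 227, Anxa1 at 221, S100a11 at 217, S100a4 at 161, Anxa2 at 103 and Ahnak at 89.8 CPM per kb. The members thus lay much closer together in VAT eTregs than in cTregs.

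**Figure D1:**
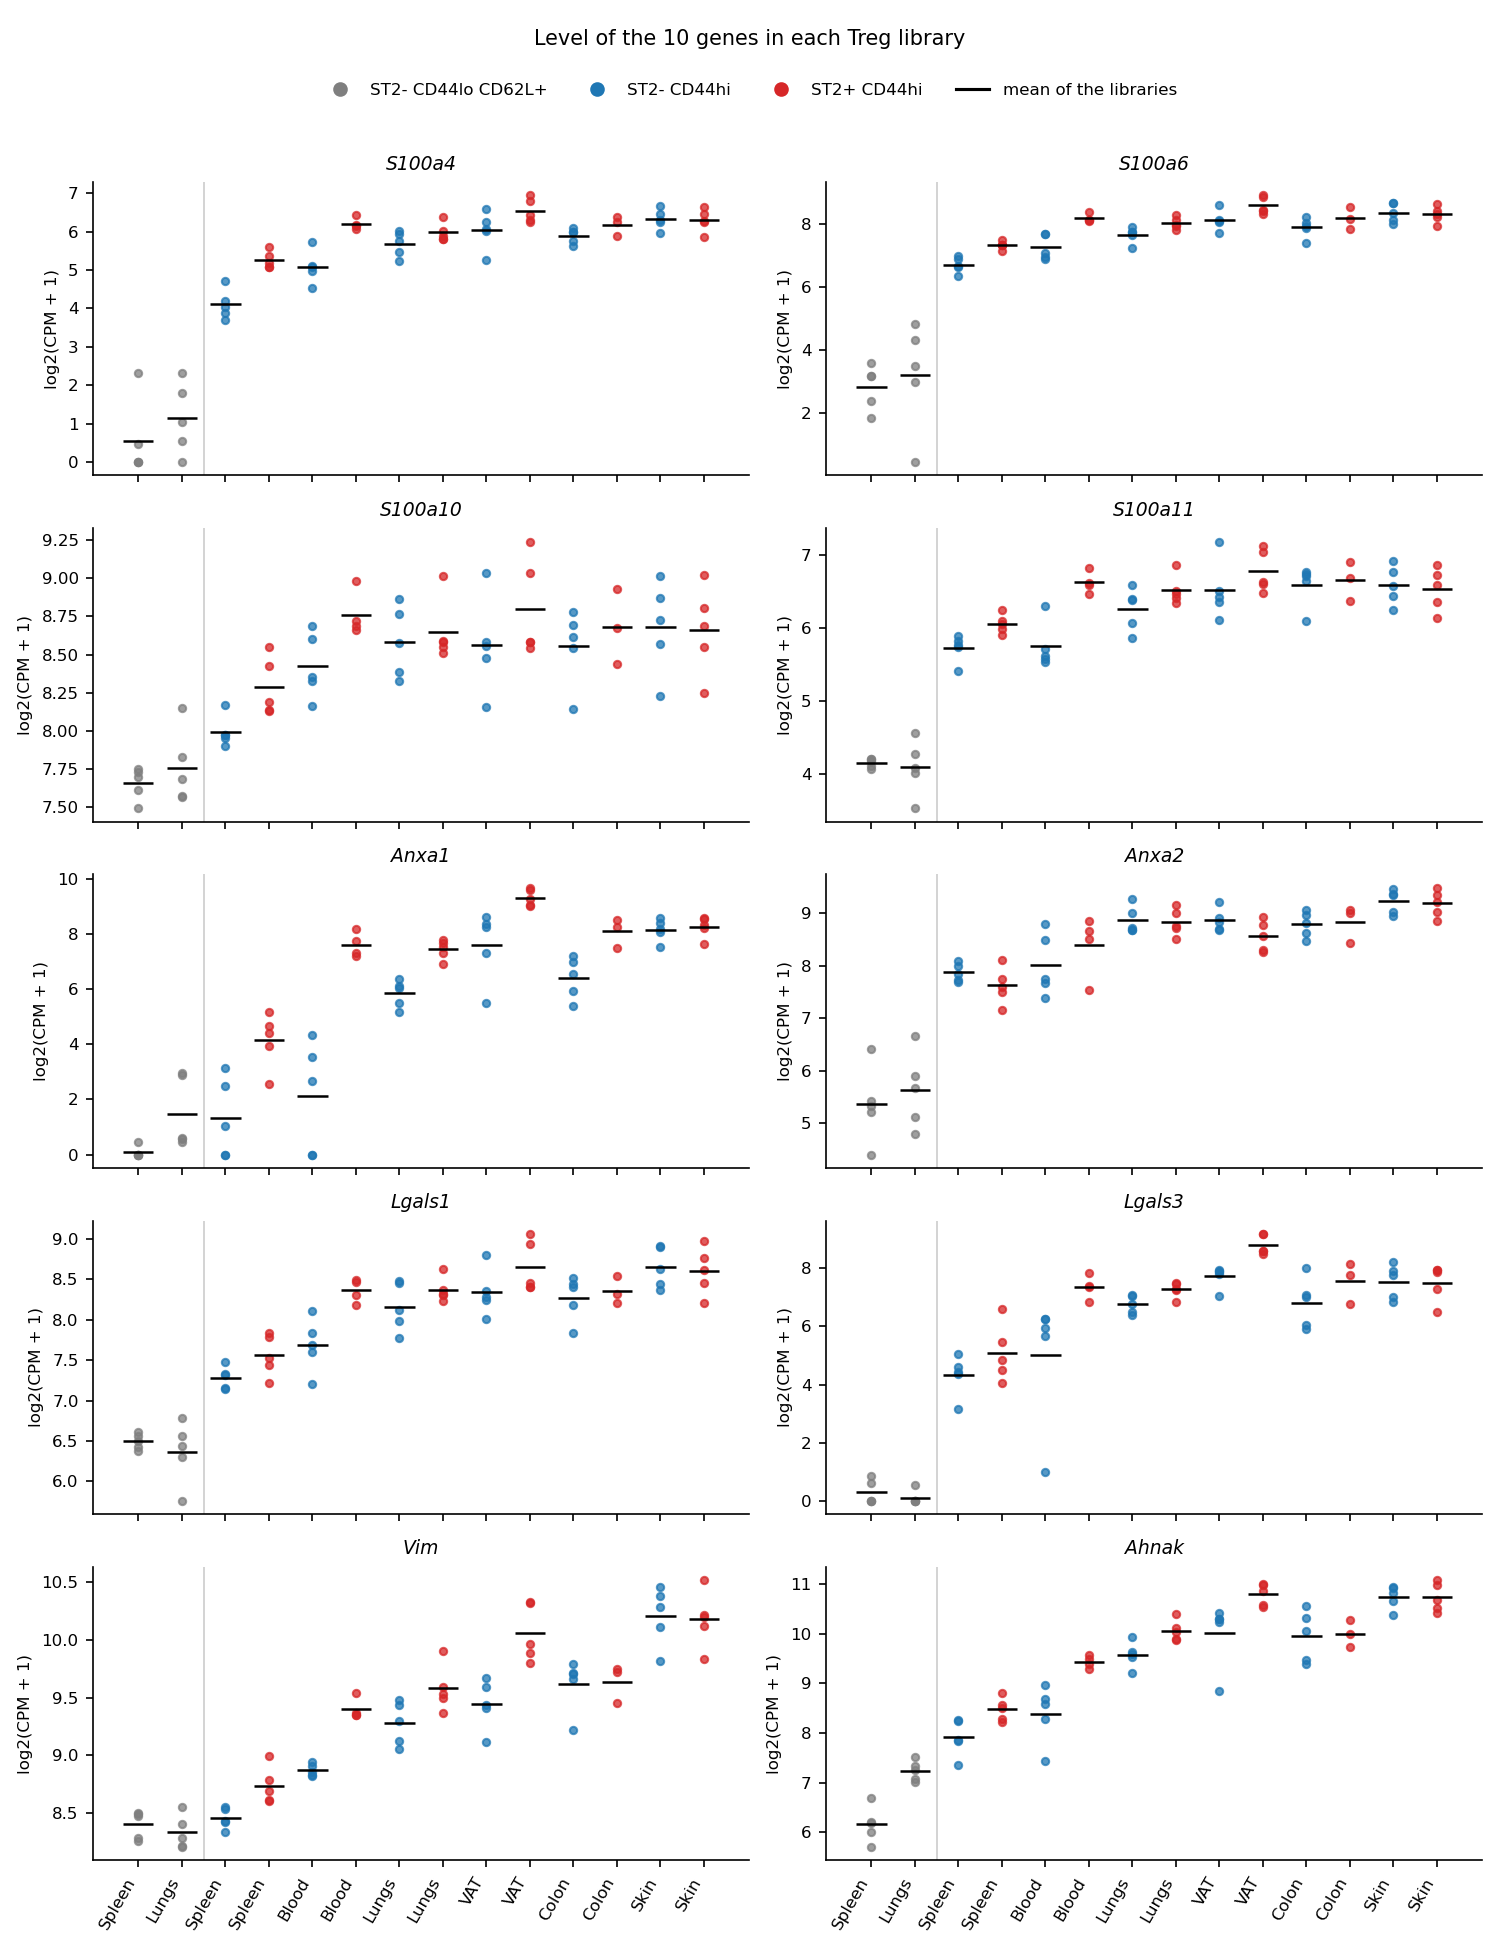
Level of each of the 10 genes in every kept library, as log2(CPM + 1), 1 panel per gene with its own y axis. Points are libraries, black lines are the mean of the log2 values, and groups stand in the order spleen and lungs CD44lo and then, for each tissue, ST2- before ST2+ CD44hi. The cTreg groups sit lowest, by little for S100a10 and Vim, with lung cTregs and spleen ST2- eTregs close together for Anxa1, and the spleen lies below the other tissues among eTregs.

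The first comparison was between eTregs and cTregs of the same organ. In the lungs all 10 genes were called higher in ST2- CD44hi than in CD44lo Tregs. In the spleen 7 were, all except S100a10, Anxa1 and Vim, whose fitted differences were above 0 but not called. A gene was called where it differed at least 1.5-fold with an adjusted p of at most 0.05 (edgeR's quasi-likelihood test, Benjamini-Hochberg adjustment over all genes tested), and 5.03% of all genes were called in the spleen (4.44% higher) and 5.53% in the lungs (4.84% higher). The median log2 fold change of the members was 2.08 in the spleen and 2.74 in the lungs, against 0.01 over all genes in the spleen. The ST2+ eTregs, which were compared with the same CD44lo libraries, had 9 members called in the spleen (7.17% of all genes, 5.96% higher) and 10 in the lungs (12.0%, 8.93% higher). The ST2- eTreg libraries stood apart from the cTreg libraries for 8 members in the spleen (9.49% of all genes) and 10 in the lungs (7.03%).

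Among the S100 genes, S100a4 and S100a6 had the largest differences. S100a4 counted 4.03, 0, 0, 0 and 0.388 CPM in the spleen cTregs of mice 1 to 5, and 12.0, 13.8, 17.4, 15.3 and 25.3 CPM in their ST2- eTregs, so the groups did not overlap and 3 cTreg libraries held none. The fitted difference was 4.06 ± 0.48 (log2 fold change ± SE, adjusted p = 2.87e-09), and over summed counts, 214 against 12, the ratio was 17.4 (exact 95% interval 9.78 to 34.3, for counting error only). In the lungs it counted 0 to 3.99 CPM in cTregs and 37.0 to 63.3 CPM in ST2- eTregs, a log2 fold change of 4.94 ± 0.46. S100a6 went from 2.58 to 11.1 CPM in spleen cTregs to 81.2 to 128 CPM in ST2- eTregs (log2 fold change 3.90 ± 0.32), and from 0.368 to 27.8 CPM to 151 to 241 CPM in the lungs (4.02 ± 0.31), where every eTreg library again stood above every cTreg library. S100a11, the partner of annexin A1, was already present in cTregs at 16.8 ± 0.75 CPM in the spleen (mean ± SD, n = 5) and was higher in ST2- eTregs by 1.64 ± 0.19 in the spleen and 2.22 ± 0.20 in the lungs on the log2 scale. S100a10 had a high level everywhere. It was 201 ± 14.5 CPM in spleen cTregs and 254 ± 19.2 CPM in ST2- eTregs, and although these groups did not overlap, the log2 difference of 0.34 ± 0.15 did not pass the test (adjusted p = 0.225), whereas it did in the lungs (0.82 ± 0.15, adjusted p = 6.8e-05).

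The annexins differed from each other. Anxa2 was detected in every cTreg library, at 20.1 to 84.6 CPM in the spleen and 26.6 to 101 CPM in the lungs, and was higher in ST2- eTregs by 2.39 ± 0.27 and 3.13 ± 0.27 on the log2 scale, with no overlap in either organ. Anxa1 gave 1 count over all 5 spleen cTreg libraries. In ST2- eTregs of the spleen it counted 0, 4.60, 0, 7.87 and 1.05 CPM, so these groups overlapped and the difference did not pass the test (adjusted p = 0.0895). The ratio of 33 counts against 1 was 32.3 (exact 95% interval 5.4 to 1313), and DESeq2 called it (adjusted p = 0.00123), as did the fit without mouse 1 (adjusted p = 0.0373). In the lungs Anxa1 counted 0.368, 0.502, 0.469, 6.30 and 6.78 CPM in cTregs and 68.6, 44.4, 80.9, 64.2 and 35.2 CPM in ST2- eTregs, which did not overlap (log2 fold change 4.33 ± 0.62, adjusted p = 4.97e-07). Every ST2- eTreg library of the lungs thus held more Anxa1 than any of the spleen.

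Of the galectins, Lgals3 was nearly silent in cTregs, with 3 counts over the 5 spleen libraries and 1 over the 5 lung libraries. It counted 23.2, 20.5, 32.2, 7.87 and 19.7 CPM in spleen ST2- eTregs and 109, 82.9, 131, 133 and 90.2 CPM in lung ST2- eTregs, all above every cTreg library. The ratio of summed counts was 84.8 (exact 95% interval 28.7 to 414) in the spleen and 1245 (223 to 49230) in the lungs, and the fitted values of 6.09 and 9.51 on the log2 scale depend on the prior count. Lgals1 by contrast started from 89.3 ± 6.04 CPM in spleen cTregs and rose by 0.80 ± 0.17 in the spleen and 1.79 ± 0.17 in the lungs on the log2 scale.

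Vim was the member for which the organs differed. It counted 360, 306, 311, 355 and 362 CPM in spleen cTregs and 322, 370, 344, 342 and 374 CPM in spleen ST2- eTregs, which overlapped (log2 difference 0.05 ± 0.12, adjusted p = 0.993). In the lungs it counted 296, 294, 310, 339 and 375 CPM in cTregs and 690, 714, 557, 627 and 531 CPM in ST2- eTregs, which did not overlap (0.95 ± 0.12, adjusted p = 1.16e-08). The test of the difference between the lung and the spleen effects gave 0.90 on the log2 scale (adjusted p = 0.00382), and Vim was the only member past it, with 0.137% of all genes. It missed the threshold without mouse 1 (adjusted p = 0.0535), mouse 2 (0.0697) or mouse 3 (0.0801) and with all 70 libraries (0.204). Lgals1 came next, with a difference of 0.99 and adjusted p = 0.0534, which passed with the mouse as a block (adjusted p = 0.0403), and the others had adjusted p of at least 0.665. Ahnak rose in both organs, from 72.4 ± 19.1 to 247 ± 60.5 CPM in the spleen (log2 fold change 1.77 ± 0.23) and from 152 ± 22.0 to 774 ± 137 CPM in the lungs (2.35 ± 0.23).

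In the ST2+ eTregs, set against the same cTreg libraries, every member stood above the cTregs without overlap in both organs, as did 11% of all genes in the spleen and 11.6% in the lungs. Their log2 fold changes were 5.22 for S100a4, 4.51 for S100a6, 7.11 for Anxa1 and 2.31 for Ahnak in the spleen, and 5.24, 4.39, 5.92 and 2.83 in the lungs. Anxa1, at 4.93, 20.2, 14.4, 35.1 and 24.0 CPM in spleen ST2+ Tregs, passed the test there (229 counts against 1, ratio 233 with exact 95% interval 41.5 to 9264). Vim alone was not called in spleen ST2+ Tregs (0.34 ± 0.12, adjusted p = 0.0642).

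**Figure D2:**
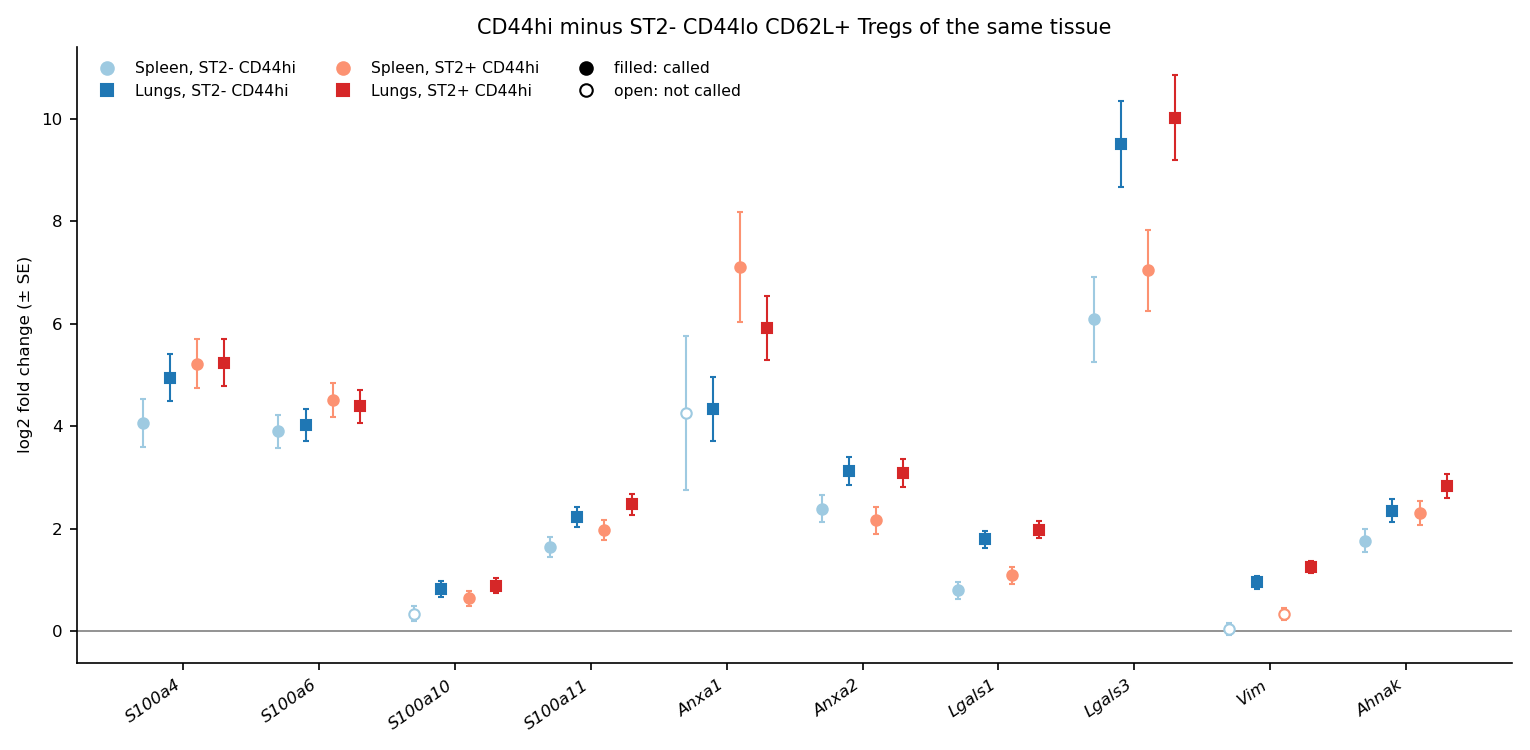
Log2 fold change (± SE) of each gene in CD44hi against CD44lo Tregs of the spleen and lungs, for ST2- and ST2+ cells, which share the CD44lo libraries. Filled points were called and open points were not. S100a4, S100a6, Anxa1 and Lgals3 stand highest, at 3.90 and above, and Vim in ST2- Tregs of the spleen lies next to 0.

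Between the organs, the cTregs themselves differed in 1 member of 10, where 3.16% of all genes were called (2.12% higher in lungs). Ahnak counted 72.9, 63.5, 71.6, 51.1 and 103 CPM in spleen cTregs and 152, 161, 128, 183 and 134 CPM in lung cTregs, with no overlap (log2 fold change 1.06 ± 0.22, adjusted p = 0.00121). The other 9 overlapped, and 6.19% of all genes did not. Leaving out mouse 1, whose spleen cTreg library held 4.03 CPM of S100a4 and whose lung cTreg library held none, gave 4 called members, with S100a4 at 3.68, S100a6 at 1.25 and Anxa1 at 4.46 on the log2 scale beside Ahnak. Under limma the call of Ahnak was lost (adjusted p = 0.201), and 1 other member was called instead.

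The next comparison was between tissues, each set against the spleen within ST2- or within ST2+ Tregs, so that all 5 comparisons of a population share its spleen libraries. All 10 members varied over the 6 tissues in both populations at an adjusted p of at most 0.05, beside 43.5% of all genes in ST2- and 47.6% in ST2+ Tregs. Every member was above the spleen in every tissue in the fit, with S100a11 and Anxa2 in blood ST2- Tregs turning to -0.12 and -0.03 without mouse 5. In ST2- Tregs the called members numbered 0 for blood (3.38% of all genes), 9 for lungs (4.03%), 10 for VAT (5.78%), 9 for colon (11%) and 10 for skin (30.9%), all higher, where 1.65%, 3.2%, 4.26%, 8.62% and 16.7% of all genes were higher. In ST2+ Tregs they numbered 6 for blood (4.11%), 6 for lungs (4.87%), 9 for VAT (11.2%), 8 for colon (10.4%) and 8 for skin (29.1%), again all higher, where 1.98%, 3.35%, 5.87%, 8.62% and 14.4% of all genes were. The libraries did not overlap those of the spleen for 1, 9, 9, 9 and 10 members in ST2- Tregs of blood, lungs, VAT, colon and skin, beside 6.78%, 9.94%, 8.02%, 12.9% and 27.3% of all genes, and for 9, 9, 9, 9 and 7 members in ST2+ Tregs, beside 9.09%, 9.62%, 11%, 21.9% and 25.5%. The median log2 fold change of the members was 0.49, 0.99, 1.26, 1.19 and 1.72 in ST2- Tregs of blood, lungs, VAT, colon and skin and 0.84, 0.82, 1.30, 0.92 and 1.26 in ST2+ Tregs, while the median of all genes lay between -0.04 and 0.05.

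Among the S100 genes, S100a4 and S100a6 moved most. In ST2- Tregs S100a4 averaged 16.8 ± 5.17 CPM in spleen, 34.1 ± 11.1 in blood, 51.3 ± 11.2 in lungs, 58.8 ± 7.68 in colon, 67.6 ± 20.7 in VAT and 80.5 ± 14.4 in skin, and every value of the last 4 tissues lay above every spleen value. The skin exceeded the spleen by 2.26 on the log2 scale, and the differences of lungs (1.60), colon (1.80) and VAT were called as well. In ST2+ Tregs, which started from 37.7 ± 6.24 CPM in spleen, edgeR called the differences in VAT (1.32) and skin (1.07), and the libraries of all 5 tissues lay above those of the spleen. The skin call was lost in 4 of 14 alternatives (without mouse 2, 3 or 4 and without the libraries rich in other cell types, adjusted p up to 0.27), and blood, lungs and colon were also called by DESeq2 and limma. S100a6 ranged from 105 ± 18.0 CPM in spleen to 335 ± 70.7 CPM in skin for ST2- Tregs and from 160 ± 13.8 CPM in spleen to 393 ± 76.8 CPM in VAT for ST2+ Tregs. The call of S100a6 between blood and spleen ST2+ Tregs (0.87, adjusted p = 0.0466) was lost in 9 of 14 alternatives, among them the fit with the mouse as a block (adjusted p = 0.0555) and each fit without mouse 2, 3, 4 or 5 (adjusted p up to 0.233). S100a11 and S100a10 moved least: S100a11 exceeded the spleen by up to 0.89 in ST2- colon, and S100a10 by up to 0.71 in ST2- skin and 0.53 in ST2+ VAT, the latter under the 1.5-fold limit.

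Anxa1 had the widest range of all members. In ST2- Tregs it counted 0, 0, 10.7, 19.4 and 5.27 CPM in blood, 40.3, 126, 145, 92.3 and 60.4 CPM in colon and 183, 384, 288, 336 and 266 CPM in skin, against 0 to 7.87 CPM in the spleen. VAT ST2- Tregs gave 43.9, 157, 301, 322 and 394 CPM, of which mouse 1 was the lowest. Blood overlapped the spleen (log2 difference 1.42, adjusted p = 0.294), and the other 4 tissues did not, with log2 fold changes of 4.44 ± 0.62 for lungs, 6.49 ± 0.63 for VAT, 5.10 for colon and 6.75 ± 0.63 for skin. In ST2+ Tregs, Anxa1 rose above the spleen in all 5 tissues, including the blood, where it counted 286, 159, 213 and 147 CPM in mice 2 to 5 (3.36 ± 0.52). The VAT ST2+ libraries, at 511, 759, 618, 522 and 810 CPM, were the highest of all groups and exceeded the spleen by 5.04 ± 0.53 (adjusted p = 5.75e-11).

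Anxa2, the partner of S100A10, was highest in the skin of both populations, at 602 ± 92.3 CPM in ST2- and 588 ± 101 CPM in ST2+ Tregs, against 234 ± 28.3 and 201 ± 48.9 CPM in the spleen. The log2 fold changes were 1.36 and 1.55. In blood edgeR called Anxa2 in neither population, and its ST2+ values of 403, 186, 360 and 460 CPM overlapped the spleen's, although the ST2+ difference (0.81) gained the call in 4 of 14 alternatives, DESeq2 and limma among them (lowest adjusted p 0.00208). Keratinocyte transcripts also stood at their highest in the skin libraries (20.3 to 1320 CPM), and leaving out those rich in other cell types kept 1 skin ST2- and 2 skin ST2+ libraries. With so few, and with the lone library assumed to vary like the other groups, 7 members were called in skin ST2- and 6 in skin ST2+ Tregs. The calls lost were those of Anxa2 (1.15, adjusted p = 0.0633), S100a10 (0.58, adjusted p = 0.0996) and S100a11 (0.71, adjusted p = 0.131) in ST2- and of S100a4 (0.81, adjusted p = 0.27) and S100a6 (0.75, adjusted p = 0.123) in ST2+ Tregs.

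Both galectins stood higher outside the spleen. Lgals3 counted 132, 247, 225, 241 and 232 CPM in VAT ST2- Tregs and 384, 580, 389, 360 and 578 CPM in VAT ST2+ Tregs, where all 10 libraries lay above the highest spleen value of their population, 32.2 CPM in ST2- and 95.01 CPM in ST2+. The log2 fold changes over spleen were 3.38 ± 0.45 and 3.51 ± 0.44. In blood the ST2- values were 75.5, 61.3, 0.975, 49.98 and 74.9 CPM, with mouse 3 far below the rest, and the difference from spleen was 1.34 (adjusted p = 0.0665), whereas the ST2+ difference of 2.05 was called. Lgals1 was more even and ranged from 155 ± 15.02 CPM in spleen ST2- to 410 ± 93.9 CPM in VAT ST2+ Tregs, with log2 fold changes of 0.79 to 1.10 over spleen in ST2+ Tregs.

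For Vim and Ahnak the skin stood highest or close to it. Vim counted 901, 1329, 1246, 1409 and 1106 CPM in skin ST2- Tregs and 914, 1186, 1174, 1463 and 1112 CPM in skin ST2+ Tregs, against 350 ± 21.7 and 428 ± 49.1 CPM in the spleen. The log2 fold changes were 1.77 ± 0.12 (adjusted p = 8.73e-19) and 1.45 ± 0.12 (adjusted p = 1.73e-15). Vim was also the only member whose blood ST2- libraries stood wholly above those of the spleen, where 6.78% of all genes did not overlap, but its log2 difference of 0.42 was under the 1.5-fold limit. Ahnak counted 1333, 1618, 1962, 1808 and 1939 CPM in skin ST2- and 1531, 1851, 2033, 1478 and 2063 CPM in VAT ST2+ Tregs, against 162 to 308 CPM in spleen ST2- and 298 to 448 CPM in spleen ST2+ Tregs. Its log2 fold changes were 2.81 ± 0.23 in skin ST2- (adjusted p = 9.83e-16) and 2.32 ± 0.22 in VAT ST2+ (adjusted p = 2.9e-12). Fibroblasts, which also express Vim, left transcripts in the same tissues: a list of 6 fibroblast genes, led by Dcn, summed to 44.0 to 756 CPM in skin ST2-, 2.56 to 81.4 CPM in skin ST2+, 6.82 to 745 CPM in colon ST2- and 347 to 1120 CPM in colon ST2+ libraries, against at most 3.16 CPM in spleen ST2- and 0.353 CPM in spleen ST2+, and their part in the result was not tested.

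In blood ST2- Tregs, where none of the 10 was called by edgeR, 7 had an unadjusted p under 0.05, and DESeq2 and limma called 1 each. In colon ST2+ Tregs, all 3 libraries of which carried over 500 CPM of other cell types' transcripts, the 8 called members fell to 4 without mouse 3, when only 2 colon ST2+ libraries were left.

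**Figure D3:**
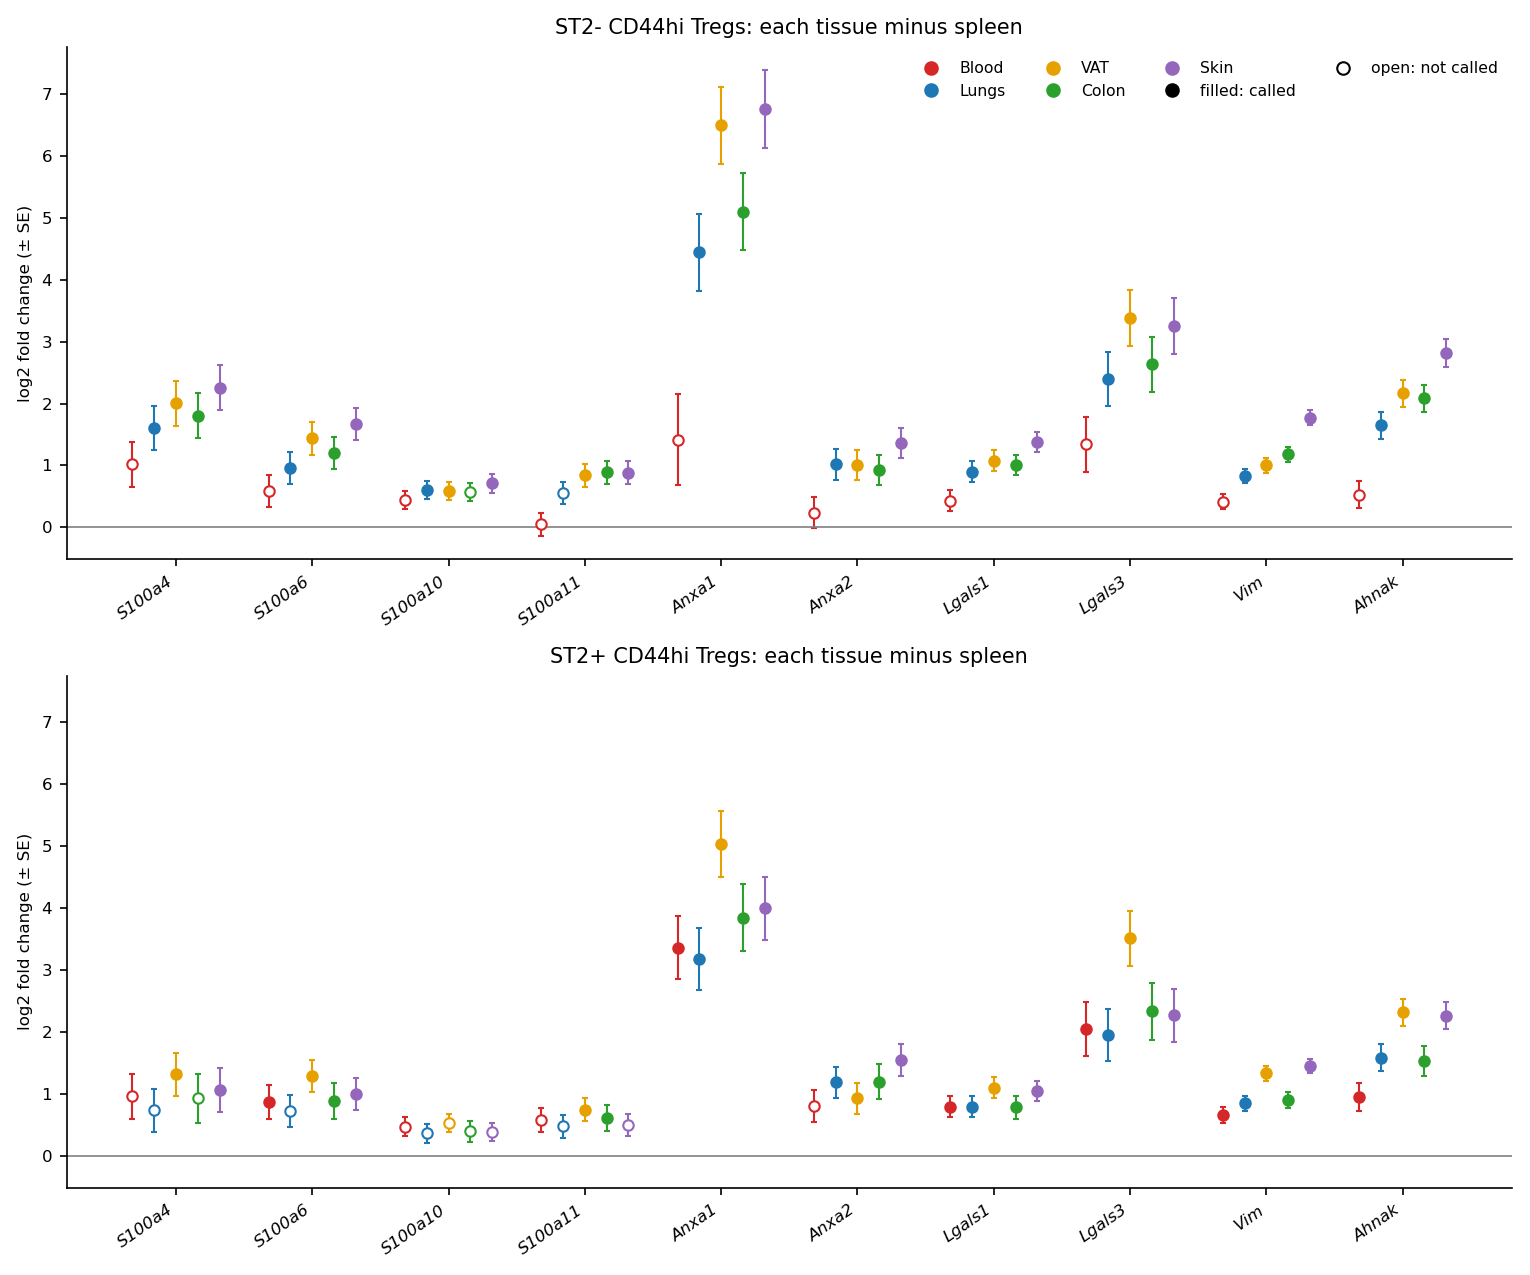
Log2 fold change (± SE) of each gene in 5 tissues against the spleen, for ST2- and ST2+ CD44hi Tregs, which within a population share the spleen libraries. Filled points were called and open points were not. All points lie above 0, and Anxa1 and Lgals3 lie highest, up to 6.75 and 3.51.

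The spleen was the lowest tissue for all 10 members in both populations. VAT was the highest for 8 of 10 in ST2+ Tregs (all but Anxa2 and Vim, highest in skin) and skin the highest for 8 of 10 in ST2- Tregs (all but S100a11, highest in colon, and Lgals3, highest in VAT). Most neighbours in these orders were not called, which does not show them to be equal: of 50 neighbouring pairs, 6 were called in ST2+ Tregs and 5 in ST2- Tregs. Of the 6, all but 1 were the step from spleen to the next tissue (lungs for Anxa1 and Lgals3, colon for Lgals1, blood for Vim and Ahnak), and the remaining step was Ahnak from lungs to skin (0.68, 17.9% of all genes called). In ST2- Tregs the called steps were Anxa1 and Ahnak from blood to lungs (3.14% of all genes), Anxa2 from blood to colon (0.69, 15.2%), Vim from colon to skin (0.60) and Ahnak from VAT to skin (0.65). There Vim also rose from spleen to blood (0.42, adjusted p = 0.0261 in edgeR) and from blood to lungs (0.42, adjusted p = 0.0268). Both steps were under the 1.5-fold limit. The ratio of the highest to the lowest mean over the 12 eTreg groups was 238 for Anxa1, 22.2 for Lgals3, 7.25 for Ahnak, 5.61 for S100a4, 3.74 for S100a6, 3.42 for Vim, 2.999 for Anxa2, 2.64 for Lgals1, 2.12 for S100a11 and 1.78 for S100a10. The ratio of Anxa1 is poorly determined, as its lowest mean, in spleen ST2- Tregs, was 2.71 ± 3.45 CPM with 2 of 5 libraries at 0.

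Pairs of tissues without the spleen were compared as well. VAT exceeded the lungs in 3 members for ST2+ Tregs (3.65% of all genes), Anxa1 (1.87 ± 0.45, adjusted p = 0.00644), Lgals3 (1.56 ± 0.41, adjusted p = 0.0138) and Ahnak (0.73 ± 0.21, adjusted p = 0.0326), and in Anxa1 alone for ST2- Tregs (2.05 ± 0.47, adjusted p = 0.00566, 1.64% of all genes). VAT exceeded blood in 4 members for ST2+ Tregs (10.7%), Anxa1 by 1.68, Lgals3 by 1.46, Vim by 0.67 and Ahnak by 1.37. In ST2- Tregs members also stood higher in VAT than in blood, with a median log2 fold change of 0.83 against 0.04 over all genes. Not every pair of tissues is named here. Between skin and VAT, Lgals3 was lower in skin in ST2+ Tregs (-1.24 ± 0.40, adjusted p = 0.0177, 21.9% of all genes), while in ST2- Tregs Vim (0.77) and Ahnak (0.65) were higher in skin (18.1%). These counts, 1 of 10 and 2 of 10 members, were below or near the shares of all genes. Skin exceeded colon in Anxa1 (1.65), Vim (0.60) and Ahnak (0.73) for ST2- Tregs (15.6%). No member was called between colon and lungs or between colon and VAT by edgeR in either population, pairs that were fitted with this tool alone, and 3.76% and 4.02% of all genes were called in ST2+ and 5.91% and 1.8% in ST2- Tregs.

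The last comparison was between ST2+ and ST2- CD44hi Tregs of the same tissue and the same mice. Of the 10 members, 6 were called in blood (4.04% of all genes, 2.25% higher), Anxa1 alone in spleen (0.319%, 0.311% higher) and 2 in VAT (3.12%, 1.27% higher), all of them higher in ST2+ Tregs. The lungs (0.782% of all genes, 0.501% higher), the colon (0.0683%, 0.0304% higher) and the skin (0.213%, 0.0835% higher) had 0 members called. The median log2 fold change of the members was 0.88 for blood, 0.44 for spleen, 0.30 for lungs, 0.47 for VAT, 0.10 for colon and -0.03 for skin, against medians of all genes from -0.01 to 0.03. Counted mouse by mouse, a member was higher in the ST2+ library in 39 of 40 pairs from blood, 44 of 50 from spleen, 40 of 50 from lungs, 43 of 50 from VAT, 21 of 30 from colon and 21 of 50 from skin. These tallies pool the 10 members over the same few mice, so the pairs are not independent and describe the libraries only. No such tally was made over all genes.

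Blood had the most called members, and 8 of the 10 did not overlap there (5.14% of all genes). Anxa1 went from 0 to 19.4 CPM in ST2- to 147 to 286 CPM in ST2+ Tregs, a log2 fold change of 4.80 ± 0.58 (adjusted p = 4.19e-08). Lgals3, at 113, 166, 161 and 226 CPM in the ST2+ libraries, was higher by 1.67 ± 0.44 (adjusted p = 0.0147), and Ahnak, at 762, 671, 716 and 624 CPM, by 0.96 ± 0.23 (adjusted p = 0.00543). S100a11 (0.86 ± 0.19, adjusted p = 0.00325), S100a6 (0.90 ± 0.27, adjusted p = 0.0415) and Lgals1 (0.65 ± 0.17, adjusted p = 0.015) were called as well, of which S100a6 lost the call in 8 of 14 alternatives (adjusted p up to 0.198). Vim had an adjusted p of 0.00475 but a difference of 0.53, under the 1.5-fold limit, and S100a4, at 1.11 ± 0.37, missed the threshold (adjusted p = 0.0682) though its groups did not overlap, and was called by DESeq2 (adjusted p = 0.000275), by limma (0.0169) and without mouse 1 (0.0231). S100a10 and Anxa2 overlapped. The calls hung on single mice in part: 3 members were called without mouse 3, whose ST2- library held 0.975 CPM of Lgals3, 4 without mouse 2 or mouse 5 and 7 without mouse 1, with Anxa1 and S100a11 called each time. The macrophage or monocyte list stood at 52.2 to 181 CPM in these ST2+ and 10.5 to 119 CPM in the ST2- libraries. Pool sizes differed too. The ST2+ libraries of mice 2 to 5 came from 202, 55, 220 and 220 cells. The ST2- libraries of mice 1 to 5 came from 166, 220, 220, 220 and 220.

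In the spleen Anxa1 alone was called. It counted 0, 4.60, 0, 7.87 and 1.05 CPM in ST2- and 4.93, 20.2, 14.4, 35.1 and 24.0 CPM in ST2+ Tregs, higher in 5 of 5 mice though the ranges overlapped (2.85 ± 0.65, adjusted p = 0.0197). The call was lost without mouse 2 (adjusted p = 0.0751), mouse 3 (0.196), mouse 4 (0.0627) or mouse 5 (0.321). S100a4, S100a6, S100a11 and Vim had ST2+ libraries wholly above the ST2- ones, where 2.43% of all genes did not overlap, but did not pass the test, with S100a4 at 1.16 ± 0.36 (adjusted p = 0.245).

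In VAT the called members were Vim and Ahnak. The populations also differed there in pool size. Every VAT ST2+ library came from 220 cells, and the VAT ST2- libraries of mice 1 to 5 came from 220, 93, 192, 118 and 135. Vim counted 553, 813, 690, 772 and 679 CPM in ST2- and 889, 1282, 997, 944 and 1278 CPM in ST2+ Tregs (0.62 ± 0.12, adjusted p = 0.000301), and Ahnak 459, 1200, 1250, 1375 and 1251 CPM against 1531, 1851, 2033, 1478 and 2063 CPM (0.69 ± 0.21, adjusted p = 0.05). Neither pair of groups overlapped, nor did those of Anxa1 and Lgals3, beside 3.34% of all genes. Ahnak was lost without mouse 1, whose ST2- library was the lowest (0.55, adjusted p = 0.134), without mouse 2 (adjusted p = 0.13) or mouse 3 (0.174), and no member was called without mouse 5, when Vim came to 0.53 and Ahnak to an adjusted p of 0.134. Macrophage or monocyte genes stood at 159 to 489 CPM in VAT ST2+ against 12.3 to 197 CPM in ST2- libraries, and without the library of each population over 500 CPM of other cell types' transcripts Vim stood at 0.54 and Ahnak at 0.73 (adjusted p = 0.122), so that none was called. Anxa1, at 1.40 ± 0.44 with adjusted p = 0.0601, passed with the mouse as a block (1.58, adjusted p = 0.0092). Anxa2 stood apart from the rest: it was lower in the ST2+ library in 5 of 5 mice, 470 ± 75.2 against 383 ± 77.3 CPM, a log2 difference of -0.30 ± 0.25 that did not pass the test (adjusted p = 0.594).

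In the lungs no member was called by edgeR, 3 had an unadjusted p under 0.05, DESeq2 called 0 and limma 1. Anxa1 counted 68.6, 44.4, 80.9, 64.2 and 35.2 CPM in ST2- and 157, 119, 184, 204 and 217 CPM in ST2+ Tregs, which did not overlap (1.58 ± 0.46, adjusted p = 0.0847), as 3.65% of all genes did not. It passed with the mouse as a block (1.56, adjusted p = 0.0342), under limma (adjusted p = 0.0102) and without mouse 1 (adjusted p = 0.0231). In the colon, 3 ST2+ libraries against 5, edgeR and DESeq2 called none, limma called Anxa1 (1.66, adjusted p = 0.0169) and 1 member had an unadjusted p under 0.05. Anxa1 was 179, 364 and 303 CPM in the ST2+ libraries of mice 1, 3 and 4 and 40.3 to 145 CPM in the ST2- ones, without overlap (5.68% of all genes), and the macrophage or monocyte list differed there too (1490 to 1670 against 32.4 to 329 CPM). In the skin none was called by edgeR, DESeq2 or limma and none had an unadjusted p under 0.05. All 10 members overlapped, where 1.42% of all genes did not, their differences lay between -0.06 and 0.10, and Anxa1, at 291 ± 75.7 CPM in ST2- and 313 ± 73.1 CPM in ST2+ Tregs, gave 0.10 ± 0.44. Skin was also the tissue whose ST2- libraries held the most Il1rl1, 118 ± 61.6 CPM against 1457 ± 110 CPM in skin ST2+. The part of this in the skin values was not tested.

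**Figure D4:**
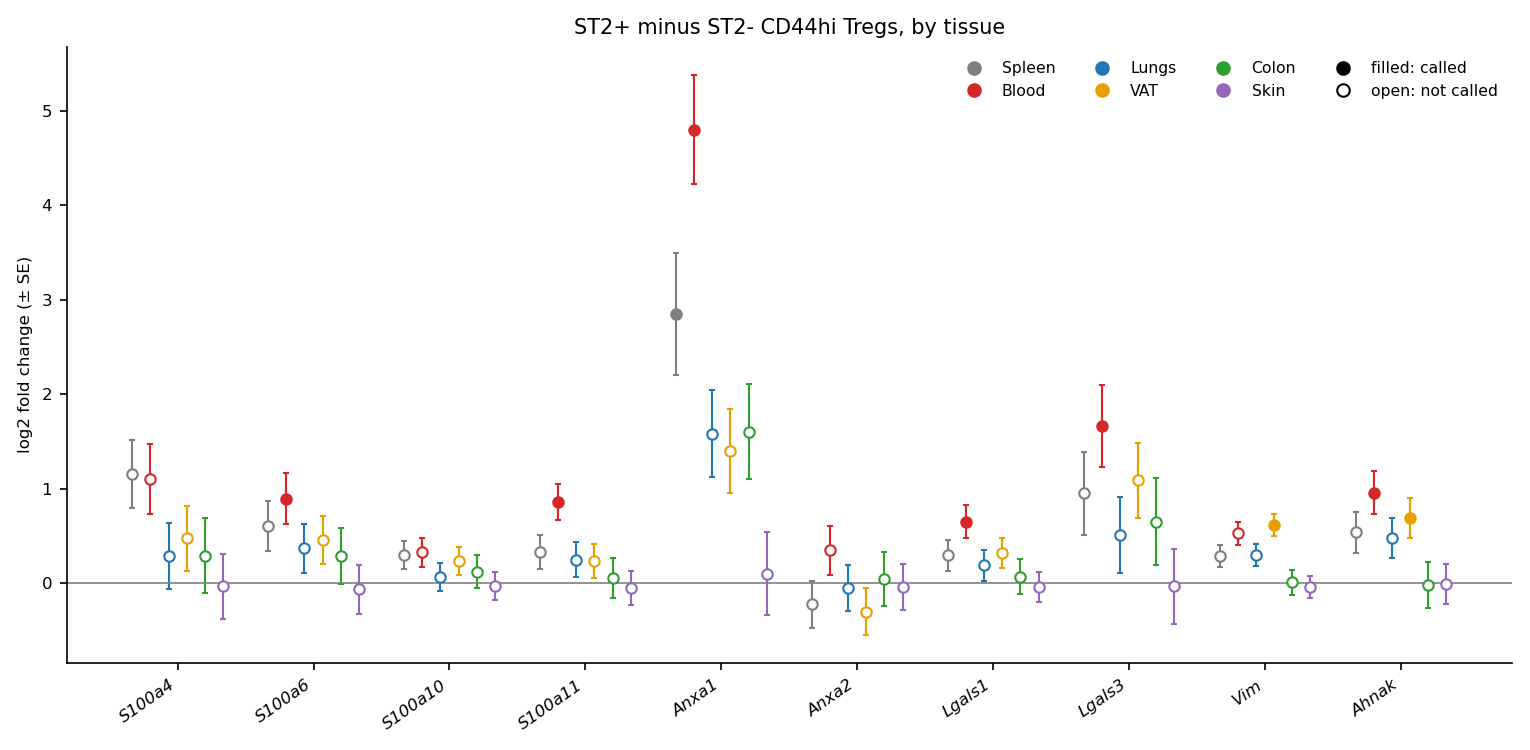
Log2 fold change (± SE) of each gene in ST2+ against ST2- CD44hi Tregs in each of the 6 tissues. Filled points were called and open points were not. Anxa1 goes from 4.80 in blood to 0.10 in skin.

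The difference of the ST2 effect between tissues was itself tested for each gene. Anxa1 was the only member past the threshold (adjusted p = 0.00108, 1.43% of all genes), with log2 fold changes of 4.80 in blood, 2.85 in spleen, 1.60 in colon, 1.58 in lungs, 1.40 in VAT and 0.10 in skin. It missed the threshold without mouse 2 (adjusted p = 0.0529) and under limma (0.0887). Vim had an adjusted p of 0.0608, which passed with the mouse as a block (0.0329), and the other 8 lay at 0.249 or above.

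**Figure D5:**
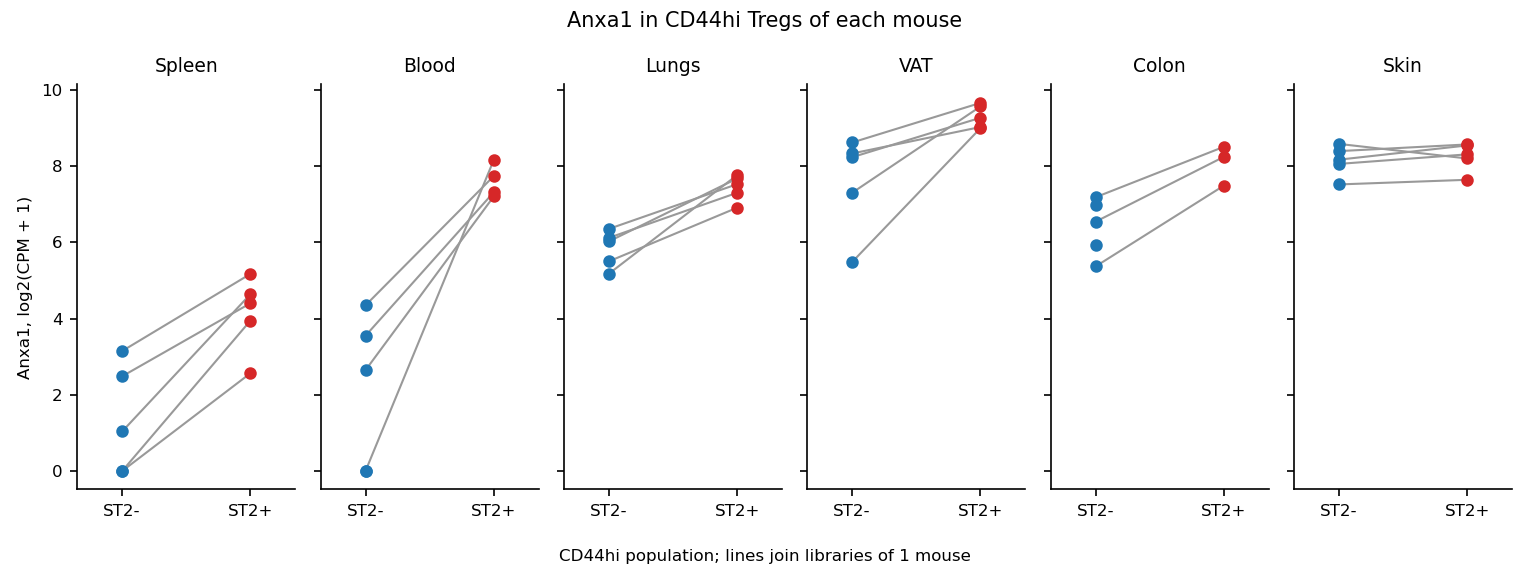
Anxa1 level, as log2(CPM + 1), in the ST2- and ST2+ CD44hi libraries of each tissue, with lines joining libraries of 1 mouse. The lines rise steeply in blood, where 2 of the 5 ST2- libraries held no count, rise less in the lungs, VAT and colon, and cross in skin, where 4 of 5 mice were higher in ST2+.

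Over the 57 eTreg libraries, tissue accounted for 38.2% (S100a10) to 80.5% (Vim) of the variance of a member's log2 level, against a median of 27.9% over all genes. The ST2 population accounted for 17.4% for Anxa1, 14.6% for S100a4 and 13.5% for S100a6, but 0.177% for Anxa2, against a median of 1.15% over all genes. Anxa2 thus followed the tissue and hardly ST2. The mouse accounted for 13.2% in S100a10 and 2.47% in Vim, where the median of all genes was 6.06%.

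The levels of the members were correlated over groups. Over the 14 group means, the correlation of log2 levels in the 45 pairs of members ran from 0.787 (S100a6 with Vim) to 0.997 (S100a4 with S100a6), with a median of 0.944, points that share mice and sequencing depth. Within groups, over deviations of the libraries from their group mean, the median was 0.345. The closest pairs there were S100a10 with Lgals1 (0.885), S100a10 with S100a11 (0.882) and S100a11 with Lgals1 (0.863), and the lowest was Anxa1 with Lgals3 (-0.086), the members with the widest ranges. These values describe the libraries and carry no test. No such value was made for pairs of other genes, and the 14 means include the cTreg groups, where the members were low. The members were also chosen with earlier results of these data known.

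Of the other 13163 genes tested, those most like a member over the 14 group means were named by the same correlation. For S100a4 they were Cass4 (0.981), Ccr4 (0.975) and Prr13 (0.972), for S100a6 Cass4 (0.98), Ccr4 (0.971) and Prr13 (0.969), and for S100a11 Ccr4 (0.988), Cass4 (0.985) and Glrx (0.98). Ccr4 encodes a chemokine receptor of skin- and tissue-homing T cells. S100a10 was most like Ccr2 (0.979), Gna15 (0.963) and Myadm (0.954), and Lgals1 was most like Myadm (0.987), Ccr2 (0.982) and Cxcr6 (0.974), of which Ccr2 and Cxcr6 also encode chemokine receptors. Anxa1 was closest to Ltb4r1 (0.978), the leukotriene B4 receptor, Serinc3 (0.968) and Metrnl (0.961), and Anxa2 to Racgap1 (0.955), Crmp1 (0.953) and Sntb2 (0.953). For Lgals3 the list was Cass4 (0.978), Tspan17 (0.977) and Glrx (0.975), for Vim Tmem30a (0.988), Smim3 (0.971) and Hlf (0.97), and for Ahnak Ctla2a (0.982), Myadm (0.978) and the nuclear receptor gene Rora (0.971). All were picked as the highest among 13163 genes. Within groups, over 67 libraries, their correlations were lower, from -0.104 (Anxa2 with Sntb2) to 0.633 (S100a11 with Glrx). For S100a4 they were 7.8e-05 with Cass4, -0.017 with Ccr4 and 0.498 with Prr13.

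Related genes outside the 10 were read from the same fits. Of 12 other S100 genes 8 passed the filter, and edgeR called 0 in the 6 comparisons of ST2+ with ST2- Tregs, with at most 2 at an unadjusted p under 0.05 (in blood), and 0 in spleen or lungs between ST2- eTregs and cTregs (1 and 2 at that p). It did call 3 of the 8 in lung ST2+ eTregs against cTregs, S100a13 (0.60 ± 0.15) among them, and against the spleen it called 2 in VAT, 2 in colon and 3 in skin of ST2- Tregs and 1 in blood, 1 in VAT, 3 in colon and 2 in skin of ST2+ Tregs, all higher. Of 10 other annexins 8 were tested, of which Anxa4 was called in blood between ST2+ and ST2- (1.49 ± 0.38, adjusted p = 0.0117) and in spleen (1.60 ± 0.37) and lungs (1.96 ± 0.38) between ST2- eTregs and cTregs, with Anxa5 (0.77) and Anxa6 (0.62) called in the lungs as well. None of the 5 tested of 8 other galectins was called by edgeR in the 6 ST2 comparisons or in ST2- eTregs against cTregs, and at most 1 per comparison had an unadjusted p under 0.05. Among the filament and lamin genes (8 of 9 tested), Lmna, which encodes the A-type lamins of the nuclear envelope, was higher in ST2+ Tregs of blood (2.73 ± 0.45, adjusted p = 3.14e-05) and VAT (2.01 ± 0.39, adjusted p = 0.000459) and exceeded the spleen in the skin of ST2- Tregs (6.74 ± 0.50) and in the VAT of ST2+ Tregs (4.53 ± 0.44). Plec, whose product plectin links vimentin filaments to other structures, was higher in VAT ST2+ Tregs than in VAT ST2- (0.91 ± 0.17, adjusted p = 0.000219) and in VAT ST2+ Tregs than in spleen ST2+ (1.60 ± 0.17). The tissue difference of the ST2 effect passed the test for Plec (adjusted p = 0.0318) and Lmna (0.0367). Of the galectin, S100 and annexin partner and receptor genes (6 of 9 tested), none was called by edgeR in the ST2 comparisons, where at most 3 had an unadjusted p under 0.05 (in skin), and Havcr2, which encodes the inhibitory receptor TIM-3, was called in lung ST2- eTregs against cTregs (4.68 on the log2 scale).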

How the data were processed

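RNA was sequenced from small pools of sorted Tregs (SMART-Seq v4 cDNA, NexteraXT libraries, single reads). The authors aligned the reads with STAR to GRCm38 with Ensembl 91 genes and made a count for each gene with HTSeq-count, and the deposited values are these raw counts. The submitters' processing notes name CASAVA 1.8.2 and HTSeq 0.4.1, and the strand setting is not given in the sources used here. Spleen and lung cells were enriched for CD4+ cells on magnetic columns before sorting, solid tissues were digested with collagenase, and cells were gated as live CD4+ YFP+ cells.

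Libraries under 1000000 counts were left out, which kept 67 of 70 (median 2039002 counts). Protein-coding genes that reached 1 CPM in no fewer than 10% of kept libraries were tested with edgeR 4.0.16 (R 4.3.3) in 1 quasi-likelihood model with TMM factors and 14 group terms, and p-values were adjusted over all 13173 genes by the method of Benjamini and Hochberg. CPM values use library sizes scaled by the TMM factors. SEs were derived from the fold change and its F statistic, log2 CPM used a prior count of 2, and intervals of count ratios are exact and cover counting error only. Replicates are separate mice. In simulated counts 19% to 39% of genes changed 2-fold and 42% to 65% of those changed 4-fold were recovered per comparison, depending on the comparison, with 0 to 7 false calls among 13173 genes.

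The same mice gave all groups, so mouse numbers pair the libraries by design. Deviations from the group means had a mean correlation of 0.117 over 27 same-mouse pairs (14 above 0.1) and -0.028 over 108 pairs of different mice (6441 genes). The fit with the mouse as a block was an alternative, beside limma 3.58.1, DESeq2 1.42.0, other scaling factors, gene filters, all 70 libraries, a covariate for how many cells were sorted, a prior count of 5, leaving out each mouse, and, chosen after seeing the data, leaving out 15 libraries with over 500 CPM of other cell types' marker transcripts. The rule for further genes was the 3 most correlated over group means for each member, and, for related families, at most 3 called genes per list and comparison. The members and lists were chosen with earlier results of these data known. Promoter sequences are RefSeq's (GRCm38.p6), of which S100a10 and Lgals1 had no entry. Figures and descriptive values were made with Python 3.11.15, numpy 2.4.6, pandas 2.3.3, scipy 1.17.1 and matplotlib 3.10.9.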

Additional observations from a re-analysis of the deposited data

Results flagged for a closer look

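In groups of 4 or 5 mice, 15 of 130 combinations of gene and group held a library that stood apart from the others by a gap test (Dixon's 95% limit), of which chance gives about 1 in 20. Mouse 2 gave the highest blood ST2+ values of S100a6 (337.9 CPM), S100a10 (505.0 CPM) and Vim (742.3 CPM), the highest S100a10 in spleen ST2- (287.5 CPM) and the highest S100a11 in VAT ST2- (145.0 CPM). Mouse 4 gave the highest lung ST2+ values of S100a10 (516.3 CPM) and S100a11 (115.7 CPM) and the lowest colon ST2- values of S100a11 (67.74 CPM) and Vim (596.5 CPM). Mouse 1 gave the lowest VAT ST2- values of Lgals3 (131.9 CPM) and Ahnak (459.2 CPM) and the highest spleen CD44lo value of S100a4 (4.031 CPM), and mouse 5 the highest S100a11 in blood ST2- (78.41 CPM). In cTregs, single libraries held the only count of Anxa1 in spleen (mouse 5, 0.3882 CPM) and of Lgals3 in lungs (mouse 3, 0.4686 CPM). The ST2 effect on Anxa1 differed between tissues (adjusted p = 0.001075), and the effector effect on Vim differed between lungs and spleen (adjusted p = 0.003816), both by a test of the difference itself in edgeR.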

How the results depend on the processing

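Of 3060 values of the members under alternative settings, 94 of the 1700 that were called lost the call and none of these changed sign; 54 others gained a call, and 43 uncalled values changed sign. Anxa1 in blood was called between ST2+ and ST2- Tregs in all 14 alternatives (4.29 to 5.58 on the log2 scale, highest adjusted p 0.00934). Counts of called members that moved by more than 1.5 times were, for ST2 in spleen, 2 with DESeq2 and limma and 0 with all 70 libraries or without those rich in other cells' transcripts; in lungs, 1 with limma and with the mouse as a block; in VAT, 1 without a gene filter, with all 70 libraries or with the number of cells, and 0 without the libraries rich in other cells' transcripts; and in colon, 1 with limma. For lungs against spleen cTregs DESeq2 gave 2, and for blood against spleen ST2- Tregs DESeq2 and limma gave 1. The interaction of tissue and ST2 gave 3 with DESeq2, 0 with limma and 2 with the mouse block or the 50% filter, and that of tissue and effector state gave 2 with DESeq2, limma, the mouse block and the 50% filter and 0 with all 70 libraries. The mouse block changed no other call than those given above and that of S100a10 in VAT ST2- Tregs (0.58, under the fold limit).

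Leaving out each mouse in turn gave 3 to 7 members for ST2 in blood, 0 to 1 in spleen, 0 to 1 in lungs, 0 to 2 in VAT and 0 in colon and skin; 7 to 8 for ST2- eTregs against cTregs in spleen and 10 in lungs, 9 and 10 for ST2+; 1 to 4 for lung against spleen cTregs; against spleen, 4 to 7 in blood, 6 in lungs, 7 to 10 in VAT, 4 to 9 in colon and 7 to 9 in skin for ST2+, and 0 to 1, 7 to 9, 8 to 10, 9 to 10 and 10 for ST2-; 7 to 10 and 10 over tissues in ST2+ and ST2-; and 0 to 2 and 0 to 1 for the interactions with ST2 and effector state.

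Signs changed in values that were not called. Ahnak in colon turned to 0.0098 (DESeq2), 0.0024 (limma), 0.097 (mouse block), 0.012 (median-of-ratios factors) and 0.14 (without mouse 5). In skin, limma gave 0.0040 for S100a4, 0.0086 for S100a10, 0.025 for Lgals1 and 0.24 for Lgals3. Ahnak in skin turned to 0.0073 with DESeq2, 0.0087 with median-of-ratios factors, 0.0030 with all 70 libraries and 0.067 without mouse 4. Without the libraries rich in other cells' transcripts, which kept 2 skin ST2+ libraries and 1 skin ST2-, whose spread is assumed to be that of the other groups, Anxa1 in skin was -0.046 and Lgals3 0.10, and Lgals3 was 0.23 without mouse 1 and 0.075 without mouse 4. Leaving out a mouse gave -0.044 to 0.15 for S100a10 and -0.18 to 0.092 (0.054 without mouse 1) for Anxa2 in lungs; in colon -0.056 (and -0.055) to 0.20 for S100a11, -0.030 and -0.10 for Anxa2, -0.0036 to 0.21 for Lgals1 and -0.13 to 0.12 for Vim; -0.052 at the lowest for Ahnak in skin; and -0.029 for Vim in spleen ST2- eTregs against cTregs. In lung against spleen cTregs it gave -0.19 to 3.68 for S100a4, -0.16 to 0.082 (and 0.00081) for S100a11, -0.14 to 0.61 for Anxa2, 0.035 at the highest for Lgals1 and -2.60 to 0.051 for Lgals3, and in blood against spleen ST2- Tregs -0.12 to 0.13 for S100a11 and -0.031 to 0.36 for Anxa2. The lung minus spleen effector effect turned to -0.45 (limma) and -2.19 (without mouse 1) to 2.10 (without mouse 5) for S100a4, -0.38 (and -0.21) to 0.67 for S100a6, and -0.26 (DESeq2), -0.40, -0.42 and -0.54 for Anxa1. The cause was not tested.

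The median of all genes shifted by over 0.1 with the 50% filter in skin against spleen (-0.12 in both populations), with all 70 libraries in blood ST2+ (-0.15), with the number of cells for ST2 in VAT (-0.11) and VAT ST2- against spleen (0.10), and without the libraries rich in other cells' transcripts in skin (-0.14 for ST2+, -0.17 for ST2-). Those libraries could not be left out of the comparisons of colon ST2+ Tregs. The 20 tissue pairs without the spleen were fitted with the reported settings alone. A median of 2039002 counts per library, from at most 220 cells, limit the members near 0, S100a4, Anxa1 and Lgals3, in cTregs, where libraries hold a few counts or none.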
